A study of Mus musculus with 4 samples.

Results

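Immediate early genes are transcribed within minutes of synaptic activity or a growth factor signal, before any new protein has been made. Calcium and MAP kinase signals act on transcription factors that are already bound to their promoters, above all CREB and the serum response factor. Most of the genes code for transcription factors that switch on a later set of genes, and their transcripts are short-lived, so the level in a frozen tissue reflects a short time before death. In the hippocampus they are the usual readout of recently active neurons and are tied to the storage of memory. The 10 genes described here are Fos, Fosb, Junb, Egr1, Egr3, Egr4, Arc, Npas4, Nr4a1 and Nr4a3. They were chosen by symbol, and all 10 were found among the 32285 genes in each of the 4 libraries.

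The study sequenced RNA from single nuclei of the mouse hippocampus in 4 groups, with 1 library per group. All mice were female C57BL/6J animals aged 8 weeks at the start, on normal chow, and carried either the wild-type App gene (WT) or the APPNL-G-F knock-in, which places a humanized amyloid-beta sequence with familial Alzheimer's disease mutations in the mouse App gene. The groups were WT without exercise, WT with exercise, APPNL-G-F without exercise and APPNL-G-F with exercise. The groups are those of the sample titles. The treatment text of the labels describes voluntary wheel running for 10 weeks and stands in the same words on all 4 samples, so what housing the groups without exercise had is not given. The number of animals behind each library, and the time between the last running and tissue collection, are not given. The knock-in allele is present in every cell, and no group carried it in 1 cell type alone. With 1 library per group no difference was tested, and every interval below covers counting error only. Differences between animals, dissections and library preparations cannot be told apart from those of genotype and exercise. The label WT or APPNL-G-F cannot be checked from the 10 genes.

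A total of 10213, 6508, 9278 and 8745 nuclei were kept, in the order WT without exercise, WT with exercise, APPNL-G-F without exercise and APPNL-G-F with exercise. The deposited matrices held between 64158446 and 91676884 UMIs (unique molecular identifiers, each counting 1 captured RNA molecule) per library. Any pair of libraries shared between 20 and 42 cell barcodes. Nuclei were assigned to dentate granule, CA1 pyramidal, CA3 pyramidal, subicular or other retrohippocampal excitatory, and inhibitory neurons by marker genes. Each of these classes held at least 422 nuclei in every library. The library of APPNL-G-F mice with exercise stood apart from the others: 96.4% of its granule neurons fell in a cluster that held few granule neurons of the other libraries, and its lowest barcode had 1199 UMIs against 500 to 504. The library of APPNL-G-F mice without exercise stood apart too. Malat1, a nuclear long noncoding RNA, took 9.51% of all UMIs in APPNL-G-F mice without exercise and 3.2% to 6.07% in the other libraries. Per 1000000 UMIs, Ttr, a choroid plexus gene, was at 187 against 0.443 to 5.66. The haemoglobin gene Hbb-bs was at 25.2 against 0.688 to 14.4. Of its oligodendrocytes 92.4% fell in cluster 24, while cluster 1 or 13 held most of those in the other libraries. The median log2 ratio of all genes lay between -0.17 and 0.28 over the classes and comparisons used below.

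The positions of the genes are those of GENCODE M21 on GRCm38, the build that is also called mm10. Fos lies on chromosome 12 from 85473890 to 85477273 on the plus strand, and Junb on chromosome 8 from 84974484 to 84978718 on the minus strand. Egr4 lies on chromosome 6 from 85511121 to 85513589 and Arc on chromosome 15 from 74669083 to 74672570, both on the minus strand. Nr4a1 lies on chromosome 15 from 101254269 to 101274795 and Nr4a3 on chromosome 4 from 48045153 to 48086447, both on the plus strand. The genes span between 2.47 kb (Egr4) and 41.3 kb (Nr4a3), and levels are therefore compared between classes and libraries within a gene, not between genes. Junb has a single exon and overlaps Prdx2, a peroxiredoxin gene on the opposite strand; none of the other members overlaps an annotated gene.

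Promoter sequences from RefSeq were matched to 7 of the 10 members, and those of Arc, Egr1 and Egr3 were not analysed here. In the 250 bases before the transcript start, each of the 7 had the cAMP response element core TGACG on 1 of the strands, a sequence that CREB can bind. The core was present in 17.9% of 27025 promoters of the same length. The promoters of Junb, Egr4, Nr4a1 and Nr4a3 are shown because these 4 genes carried most of the larger differences between libraries described below. Arc, Egr1, Egr3, Npas4 and Fos carried some too. The promoters shown run 5′ to 3′ towards the gene, from RefSeq on GRCm38.p6, and capitals mark the core and the Egr site GCGNGGGCG on either strand.

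Junb, chr8:84978749-84978998, minus strand: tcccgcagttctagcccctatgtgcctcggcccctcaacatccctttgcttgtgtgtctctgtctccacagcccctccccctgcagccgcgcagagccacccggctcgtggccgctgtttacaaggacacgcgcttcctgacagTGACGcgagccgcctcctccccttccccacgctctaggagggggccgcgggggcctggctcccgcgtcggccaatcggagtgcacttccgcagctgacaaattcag

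Egr4, chr6:85513590-85513839, minus strand: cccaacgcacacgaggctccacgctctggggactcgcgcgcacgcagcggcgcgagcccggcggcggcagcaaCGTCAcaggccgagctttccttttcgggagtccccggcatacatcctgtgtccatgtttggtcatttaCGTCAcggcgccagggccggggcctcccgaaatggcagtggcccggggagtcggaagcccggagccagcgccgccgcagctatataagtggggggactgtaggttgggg

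Nr4a1, chr15:101266596-101266845, plus strand: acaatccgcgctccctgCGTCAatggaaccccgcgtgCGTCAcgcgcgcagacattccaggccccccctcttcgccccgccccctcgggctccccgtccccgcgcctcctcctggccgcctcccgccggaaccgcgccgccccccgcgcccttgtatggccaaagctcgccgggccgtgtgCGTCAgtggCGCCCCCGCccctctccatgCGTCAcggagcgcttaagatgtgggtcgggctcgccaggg

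Nr4a3, chr4:48045055-48045304, plus strand: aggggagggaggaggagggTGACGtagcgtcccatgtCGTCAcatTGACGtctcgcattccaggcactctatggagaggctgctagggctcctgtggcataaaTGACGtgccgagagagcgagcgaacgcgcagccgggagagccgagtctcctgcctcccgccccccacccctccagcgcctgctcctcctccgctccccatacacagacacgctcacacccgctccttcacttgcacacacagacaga

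Junb had 1 match to the core, 106 bases before its start, and Egr4 had 2. Nr4a1 and Nr4a3 had 4 each. The Egr site, the sequence bound by the Egr proteins, was found upstream of Nr4a1 and Fosb and in 4.65% of all promoters. The full element TGACGTCA (1.62% of promoters), the AP-1 site TGANTCA (6.87%), the NBRE AAAGGTCA bound by Nr4a proteins (1.31%) and the CArG box of the serum response factor (1.4%) were found in none of the 7 windows. The core is part of the full element. TATAAA was found upstream of Fos, 33 bases before its start, and in 13% of promoters. A match is a description of the letters and not of binding.

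**Figure D1:**
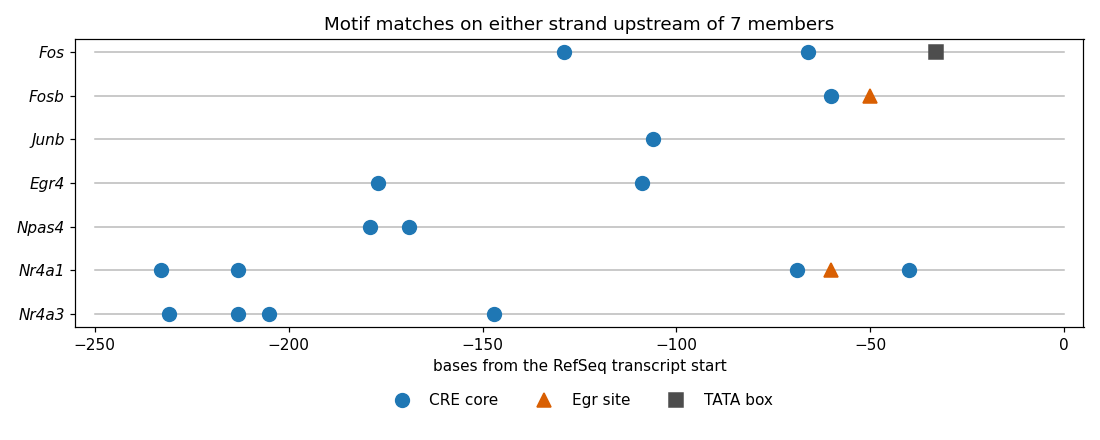
Positions of motif matches (x axis, bases from the RefSeq transcript start; both strands) in the 250 bases upstream of 7 members. Every promoter has at least 1 CRE core (circles), Nr4a1 and Fosb have an Egr site (triangles), and Fos has a TATA box (square).

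How far these transcripts stood above free RNA was read from oligodendrocytes, a glial class with fewer UMIs per nucleus. Levels are given as UMIs per 1000 nuclei, as the mean of the 4 libraries. In CA1 neurons Arc, a synaptic protein that forms capsid-like particles and regulates AMPA receptor uptake, had 86.4 UMIs per 1000 nuclei. The CA3 value was 70.2, the retrohippocampal value 76.0, and the oligodendrocyte value 19.8. In granule neurons Arc had 15.5 and in inhibitory neurons 15.9, and both class means were below that of oligodendrocytes. Within granule neurons cluster 2 stood higher in the libraries without exercise. It had 59.7 and 57.5 UMIs of Arc per 1000 nuclei there, in WT and APPNL-G-F mice. The oligodendrocytes of the same libraries had 25.1 and 14.6. In cluster 7, which holds most granule neurons of these libraries, Arc had 9.08 and 8.19, which are read as background. With exercise, cluster 2 had 19.4 in WT mice and 18.9 in APPNL-G-F mice, the latter from 1 UMI in 53 nuclei. Both are near the oligodendrocyte mean of 19.8. Median depth was 4592.5 to 6767 UMIs in granule neurons and 1355 to 2820 in oligodendrocytes.

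Egr3, Junb and Nr4a3 were above oligodendrocytes in granule neurons of all 4 libraries, with Poisson intervals that did not overlap. Arc, Egr4, Npas4, Fos and Fosb were above them in 0 of 4 libraries, Egr1 in 1 and Nr4a1 in 2. In CA1 neurons 7 members (Arc, Egr1, Egr3, Junb, Npas4, Nr4a1 and Nr4a3) were above oligodendrocytes in all 4 libraries. In inhibitory neurons Nr4a1 and Npas4 were, with 212 and 30.9 UMIs per 1000 nuclei against 26.9 and 4.35. The share of all genes above oligodendrocytes was not counted for any class. CA1 nuclei were deeper, with medians of 7078 to 10732 UMIs. Per 1000000 UMIs of the class, CA1 Arc (9.28) and Egr1 (7.30) lay below oligodendrocytes (9.75 and 7.64). Egr3, Junb, Npas4, Nr4a1 and Nr4a3 lay above them by that measure too. Fos had between 3.79 and 15.6 UMIs per 1000 nuclei in the neuron classes and Fosb between 2.12 and 7.59, so neither gene can be followed closely at this depth. Microglia held Junb and Nr4a3 above oligodendrocytes in all 4 libraries as well, at 119 and 108 UMIs per 1000 nuclei.

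**Figure D2:**
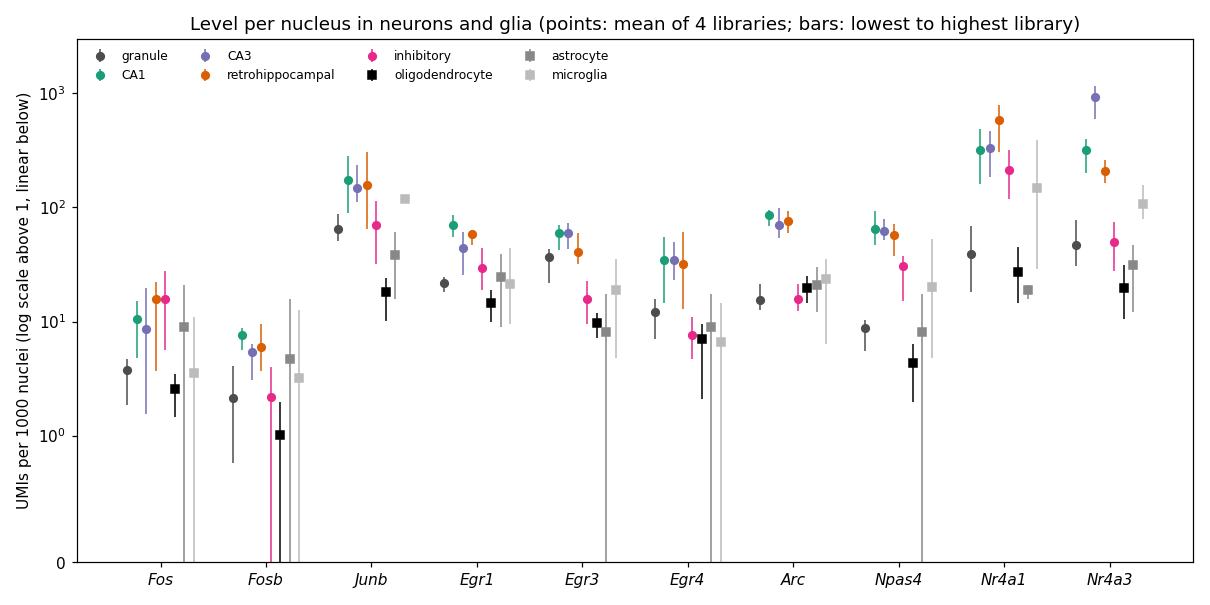
UMIs per 1000 nuclei (y axis, logarithmic above 1 and linear below) of the 10 members in 5 neuron classes (circles) and 3 glial classes (squares); points are means over 4 libraries and bars run from the lowest to the highest library. Nr4a3 in CA3 neurons reaches 919, while Arc in granule neurons (15.5) lies below Arc in oligodendrocytes (19.8).

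The share of nuclei with a UMI of any member is given with and without thinning. In CA3 neurons between 57.4% and 74.2% of nuclei held at least 1 member, and in granule neurons between 17.2% and 22.8%, with 8.83% to 13.9% in oligodendrocytes. After each nucleus was thinned to 1500 UMIs, the CA3 share was 13.5% to 18.1%, the granule share 4.63% to 6.62% and the oligodendrocyte share 7.87% to 9.43%. The inhibitory share was then 6.74% to 7.81%. Thinning removes free RNA from the deeper nuclei as well, so the thinned shares do not place a class above or below background.

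A small set of nuclei held many members at once. In WT mice without exercise 8 of 2930 granule neurons (0.273%, exact binomial interval 0.118% to 0.537%) had 4 or more members, and 1 granule neuron had 9. The other 3 libraries had 1, 2 and 4 such granule neurons. None of the 1474, 691, 1509 and 1427 oligodendrocytes did, which in the smallest of these libraries allows a share of up to 0.434% by 3 counts of the total and 0.532% by the exact binomial interval. In CA1 neurons the share with 4 or more members was 2.93%, 3.29%, 2.93% and 1.84%, in the order of libraries given above. In retrohippocampal neurons it was 2.44%, 2.71%, 3.52% and 0.557% (interval 0.115% to 1.62%), lowest in APPNL-G-F mice with exercise. Nuclei with 4 or more members were deeper than their class in most libraries, for example 10015.5 against 8815 UMIs at the median in CA1 neurons of WT mice without exercise.

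In thinned counts of all 4 libraries, Nr4a3 was found in 8.65% (interval 5.56% to 12.7%) of the 266 CA1 neurons with Nr4a1 and in 3.82% (3.33% to 4.37%) of those without. In CA3 neurons the shares were 17.0% (10.4% to 25.5%) and 8.77% (7.77% to 9.85%). Npas4 was found in 5 of the 86 CA1 neurons with Arc, or 5.81% (1.91% to 13%), and in 1.02% (0.768% to 1.32%) of those without. Junb gave no such difference with Nr4a1 in the pooled CA1 neurons. Nr4a1 was found in 4.47% (1.95% to 8.62%) of nuclei with Junb and 4.76% (4.21% to 5.36%) of those without. These nuclei were pooled over 4 libraries and over the clusters of a class, and the intervals cover counting error only. Levels differed between both, as given below. In CA1 neurons of APPNL-G-F mice Junb was lower and Nr4a1 higher with exercise. Nr4a1, Nr4a3, Arc and Npas4 were all higher in CA1 cluster 8 than in cluster 9. The part of library and cluster in these shares was not tested.

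The following levels are UMIs per 1000000 UMIs of the class (CPM), as mean ± SD over the 4 libraries, which are 4 different groups and no replicates. Orders and ranges are among the 5 neuron classes alone. Unnamed nuclei and glia were higher in CPM for some members. The Nr4a genes code for orphan nuclear receptors that bind DNA without a known hormone. Nr4a3 (NOR-1) was highest in CA3 neurons at 66.2 ± 10.9 CPM, followed by CA1 at 33.0 ± 6.50, retrohippocampal at 20.6 ± 4.98, granule at 7.08 ± 2.61 and inhibitory neurons at 5.13 ± 1.62. The ranges over libraries were separate between CA3, CA1 and retrohippocampal neurons and overlapped between granule and inhibitory neurons. In a single CA3 nucleus of WT mice without exercise 23 UMIs of Nr4a3 were counted, and 42.7% of that library's Nr4a3 UMIs in CA3 neurons came from nuclei with 3 or more.

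Nr4a1 (Nur77) had another order. It was highest in retrohippocampal neurons at 55.1 ± 14.6 CPM, then CA1 at 32.6 ± 10.7, CA3 at 23.7 ± 6.18, inhibitory at 21.7 ± 5.49 and granule neurons at 5.79 ± 2.51. Only the step from inhibitory to granule neurons had ranges that did not overlap. Within CA1, the 2 large clusters differed in every library (the third, cluster 29, held 41 nuclei): cluster 8 had 41.3, 41.4, 26.0 and 58.2 CPM of Nr4a1, and cluster 9 had 18.0, 13.3, 14.9 and 33.7. Arc followed the same order, with 13.7, 8.50, 16.7 and 9.77 CPM in cluster 8 and 5.65, 2.35, 7.34 and 7.03 in cluster 9. Among inhibitory neurons Nr4a1 had 180 UMIs per 1000 nuclei in the MGE class and 252 in the CGE class, 2 groups named for the ganglionic eminence in which they arise.

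The Egr genes code for zinc finger transcription factors that bind GC-rich sites. Egr1 was highest in CA1 (7.30 ± 1.46 CPM) and retrohippocampal neurons (5.77 ± 1.35), whose ranges overlapped, and lower in granule (3.34 ± 0.274), CA3 (3.20 ± 1.09) and inhibitory neurons (3.19 ± 1.23). Egr3 was at 6.21 ± 0.702 CPM in CA1 and 5.60 ± 0.820 in granule neurons, and its inhibitory range, from 0.858 to 2.41, lay below those of the other classes. Egr4 ran from 3.84 ± 2.56 in CA1 to 0.880 ± 0.523 in inhibitory neurons, with overlap at each step. Outside these classes, unnamed nuclei had 12.3 CPM of Egr1, 9.37 of Egr3 and 5.18 of Egr4. Oligodendrocytes, with fewer UMIs per nucleus, had 7.64 CPM of Egr1, 4.84 of Egr3 and 3.94 of Egr4. Npas4, a factor induced by calcium entry that shapes inhibitory synapses, was at 6.67 ± 1.63 CPM in CA1, 5.43 ± 0.875 in retrohippocampal, 4.49 ± 0.427 in CA3, 3.17 ± 0.749 in inhibitory and 1.33 ± 0.190 in granule neurons. The granule range lay below all the others.

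The Fos and Jun proteins pair to form the AP-1 transcription factor. Junb was at 19.3 ± 11.9 CPM in CA1, 16.6 ± 14.3 in retrohippocampal, 11.4 ± 6.50 in CA3, 10.5 ± 4.94 in granule neurons and 8.09 ± 5.78 in inhibitory neurons, with overlap at each step. Fos had the highest mean in inhibitory neurons, at 1.81 ± 1.54 CPM from 38 UMIs, and Fosb in CA1, at 0.821 ± 0.278 from 44 UMIs. No order of classes can be read for these 2 genes. Arc was at 9.28 ± 2.60 CPM in CA1, 7.59 ± 2.62 in retrohippocampal and 5.26 ± 1.87 in CA3 neurons. Oligodendrocytes, with fewer UMIs per nucleus, had 9.75 CPM of Arc. Junb was at 22.3 CPM in microglia and 19.4 in unnamed nuclei.

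**Figure D3:**
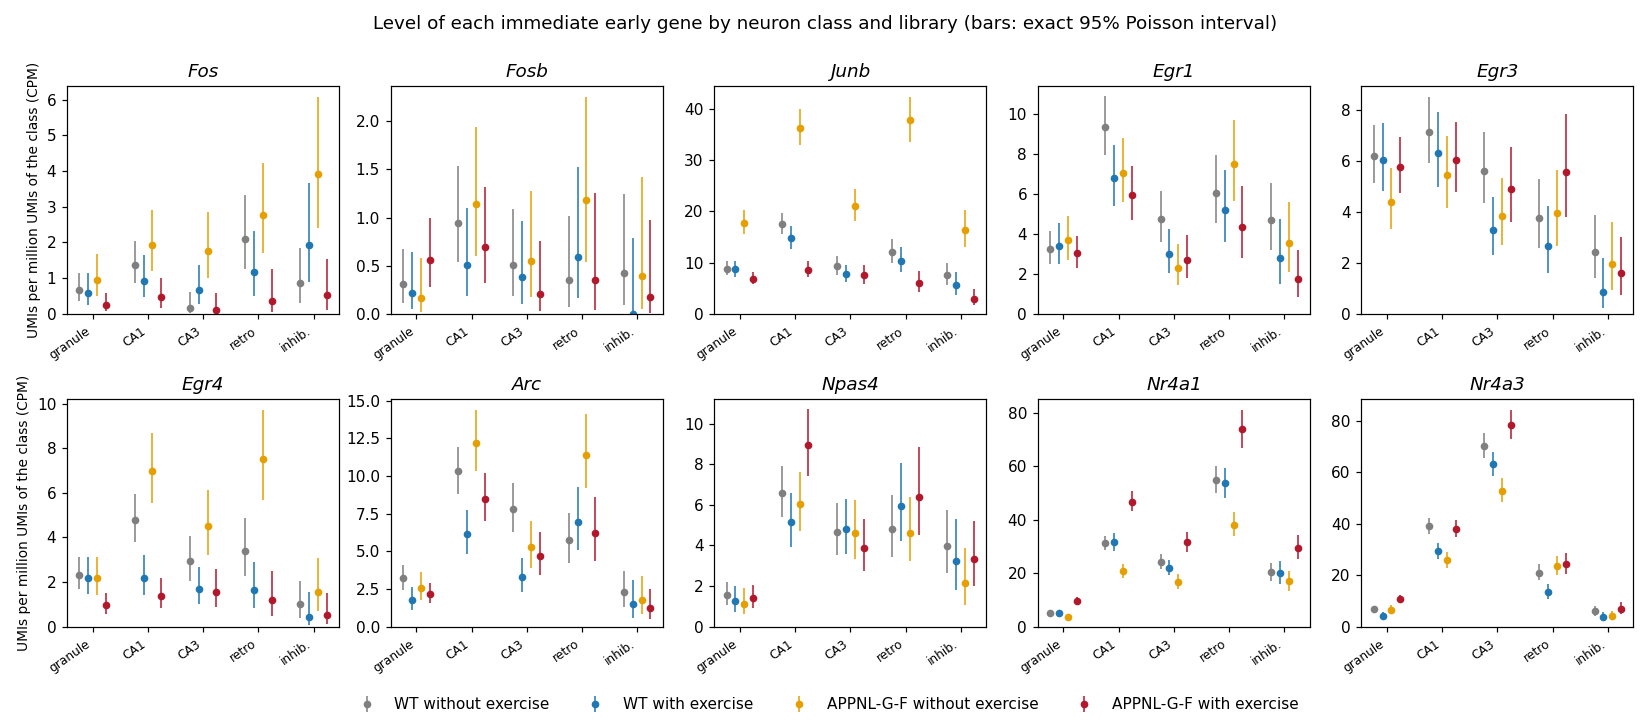
CPM (y axis, each panel with its own scale) of the 10 genes in 5 neuron classes, with 1 point per library and exact 95% Poisson intervals as bars. Junb is highest in APPNL-G-F mice without exercise in each class (16.3 to 37.8 CPM), and Nr4a1 is highest in APPNL-G-F mice with exercise (9.43 to 73.8 CPM).

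Genotype was compared first without exercise, as APPNL-G-F over WT. Ratios are given on the log2 scale with exact 95% intervals for members with at least 50 UMIs in a class over the 4 libraries. This left 8 members in granule, CA3 and retrohippocampal neurons, 9 in CA1 and 5 in inhibitory neurons, 38 values per comparison. Junb was the member with the clearest difference, and it was higher in APPNL-G-F mice in all 5 classes. In CA1 neurons Junb was at 17.5 CPM (15.6 to 19.7) in WT and 36.3 (32.9 to 40.0) in APPNL-G-F mice without exercise, and at 14.8 and 8.64 in WT and APPNL-G-F mice with exercise. In retrohippocampal neurons the 4 values were 12.1, 10.4, 37.8 and 6.06 CPM in the order of libraries given above. The APPNL-G-F library without exercise was the highest of the 4, and its interval overlapped none of the others. The log2 ratio was 1.01 (0.72 to 1.31) in granule neurons (0.58 by UMIs per nucleus, just under 1.5-fold), 1.05 (0.83 to 1.27) in CA1, 1.18 (0.84 to 1.53) in CA3, 1.64 (1.31 to 1.97) in retrohippocampal and 1.12 (0.60 to 1.64) in inhibitory neurons.

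Prdx2, which overlaps Junb on the other strand, was also higher in this comparison, by 0.23 to 0.55 on the log2 scale over the 5 classes. The sources used here do not say whether the counting used strand, and the part of Prdx2 in the Junb counts was not tested. In oligodendrocytes the Junb ratio was 0.63 (-0.12 to 1.39).

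Nr4a1 was lower in APPNL-G-F than in WT mice without exercise, by -0.59 (-0.82 to -0.37) in CA1, -0.54 (-0.83 to -0.25) in CA3 and -0.52 (-0.74 to -0.31) in retrohippocampal neurons. Nr4a3 was lower in CA1, at -0.60 (-0.80 to -0.40), and in CA3, at -0.41 (-0.57 to -0.24). Egr1 in CA3 neurons was at 4.77 CPM (3.61 to 6.18) in WT and 2.31 (1.43 to 3.52) in APPNL-G-F mice, a ratio of -1.05 (-1.85 to -0.30). In retrohippocampal neurons Arc and Egr4 were higher, at 1.0 (0.48 to 1.54) and 1.15 (0.48 to 1.84). Arc went from 5.72 to 11.4 CPM there, while in CA3 neurons its ratio was -0.56 (-1.10 to -0.04). With clusters drawn at a finer resolution (2.0) the retrohippocampal Arc ratio was 0.51 (-0.13 to 1.16). With TMM scaling, which sets each library's total by the bulk of its genes in place of all UMIs, the CA3 Arc ratio was -0.44 (-0.98 to 0.07), and with no doublets left out the Egr1 ratio in CA3 was -0.63 (-1.65 to 0.32). The CA1 ratios of Nr4a1 and Nr4a3 fell just under 1.5-fold with TMM scaling, both at -0.53, with intervals that still excluded 0.

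Over the 38 values, 13 were past 1.5-fold, or 34.2%. Of all genes with at least 50 UMIs, 23.8% were past 1.5-fold in granule, 26.0% in CA1, 28.1% in CA3, 22.9% in retrohippocampal and 23.0% in inhibitory neurons. The members' share was above this background, but several members have few UMIs and so wide intervals: 10 of the 38 values were past 1.5-fold with an interval that excluded 0. The share of all genes that met both conditions was not counted, here or in the later comparisons. The median of the members was -0.22 in granule, -0.12 in CA1, -0.47 in CA3, 0.23 in retrohippocampal and -0.40 in inhibitory neurons, against -0.01, -0.06, -0.12, -0.05 and -0.04 for all genes. The members did not go 1 way.

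With exercise, Nr4a1 and Nr4a3 were higher in APPNL-G-F than in WT mice in all 5 classes. In granule neurons Nr4a1 was at 4.94 CPM (3.84 to 6.27) in WT and 9.43 (8.13 to 10.9) in APPNL-G-F mice, a ratio of 0.93 (0.52 to 1.35). The ratios in the other classes were between 0.46 and 0.57. Nr4a3 differed most in granule neurons, with 4.29 CPM (3.27 to 5.53) and 10.6 (9.21 to 12.1) and a ratio of 1.30 (0.88 to 1.75). In the other classes its ratio was 0.32 to 0.94. With TMM scaling it was 0.12 (-0.08 to 0.32) in CA1, 0.09 (-0.07 to 0.24) in CA3 and 0.74 (-0.12 to 1.65) in inhibitory neurons, and after thinning -0.02 in CA1. In granule neurons the 2 libraries lie in different clusters (7 and 10), and oligodendrocytes of the APPNL-G-F library with exercise held 44.8 UMIs of Nr4a1 and 31.5 of Nr4a3 per 1000 nuclei against 30.4 and 11.6 in WT with exercise. In CPM, the unit of the ratios, oligodendrocyte Nr4a1 was at 14.8 against 16.0 and Nr4a3 at 10.4 against 6.09, with ratios of -0.11 (-0.84 to 0.68) and 0.78 (-0.32 to 2.07). The part of these in the granule difference was not tested.

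Junb was lower in APPNL-G-F mice with exercise in CA1, at -0.78 (-1.13 to -0.43), and in retrohippocampal neurons, at -0.77 (-1.40 to -0.17). Npas4 was higher in CA1 neurons, with 5.13 CPM (3.92 to 6.58) in WT and 8.95 (7.40 to 10.7) in APPNL-G-F mice and a ratio of 0.80 (0.34 to 1.28), or 0.55 (0.09 to 1.02) with TMM scaling. Egr3 was higher in retrohippocampal neurons, at 1.06 (0.18 to 1.98), but at 0.84 (-0.04 to 1.76) with TMM scaling and 0.09 with clusters drawn at a finer resolution (2.0). Egr4 was lower in granule neurons, at -1.19 (-2.10 to -0.31). Granule Egr4 was above oligodendrocytes in 0 of 4 libraries (means of 12.2 and 7.03 UMIs per 1000 nuclei). The part of free RNA in this ratio was not tested. Over the 38 values 13 were past 1.5-fold, or 34.2%, which is near the background of 32.7% of all genes in granule, 36.8% in CA1, 33.4% in CA3, 33.2% in retrohippocampal and 32.2% in inhibitory neurons. In CA3 neurons 0 of 8 members were past it. The members' medians were 0.06, -0.07, 0.14, -0.02 and 0.05 in the same order, against 0.19, 0.28, 0.24, 0.23 and 0.22 for all genes.

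Exercise in WT mice was compared as with over without exercise. Members were lower with exercise more often than higher. Arc was at 10.3 CPM (8.78 to 11.9) without and 6.13 (4.81 to 7.71) with exercise in CA1 neurons, a ratio of -0.74 (-1.16 to -0.34). In CA3 neurons it was at 7.78 (6.28 to 9.53) and 3.29 (2.29 to 4.58), a ratio of -1.24 (-1.84 to -0.66). The retrohippocampal ratio of Arc was 0.28 (-0.33 to 0.89), so the difference was not seen there. In granule neurons the ratio was -0.88 (-1.62 to -0.18), and -0.50 (-1.17 to 0.14) at resolution 2.0. Granule Arc was above oligodendrocytes in 0 of 4 libraries. In granule cluster 2 Arc went from 37 UMIs in 620 nuclei to 11 in 568, or from 9.94 to 2.87 CPM, and in cluster 7 from 1.32 to 1.18 CPM. The CA1 ratio of Arc was -0.58 (-1.0 to -0.18) with TMM scaling, just under 1.5-fold, and -0.41 (-1.47 to 0.57) after thinning.

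Nr4a3 was lower with exercise in WT mice in all 5 classes, and its interval excluded 0 in 4: granule at -0.67 (-1.14 to -0.22), CA1 at -0.41 (-0.60 to -0.22), CA3 at -0.15 (-0.30 to -0.01) and retrohippocampal at -0.64 (-1.02 to -0.27). The CA3 value did not keep its direction: it was 0.01 (-0.14 to 0.16) with TMM scaling and 0.22 (0.08 to 0.37) by UMIs per nucleus. With TMM scaling the granule value was -0.54 and the retrohippocampal value -0.53, both under 1.5-fold, and the latter was -0.18 (-0.57 to 0.21) at resolution 2.0. By UMIs per nucleus the CA1 value was -0.13 (-0.32 to 0.06). Nr4a1 differed little, with ratios of -0.13 to 0.01 and an interval in CA1 neurons of -0.18 to 0.20. Egr4 was lower in CA1, at -1.14 (-1.83 to -0.48), and in retrohippocampal neurons, at -1.06 (-2.21 to -0.01). Egr1 and Egr3 were lower in CA3 neurons, at -0.66 (-1.33 to -0.01) and -0.77 (-1.40 to -0.16). With TMM scaling these were -0.50 (-1.17 to 0.15) and -0.60 (-1.23 to 0.01), and with no doublets left out -0.15 and -0.34. The retrohippocampal Egr4 ratio was -0.95 (-2.10 to 0.10) with TMM scaling. The Junb ratio was -0.43 to -0.03, with intervals that held 0 in all 5 classes.

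Over the 38 values 12 were past 1.5-fold, or 31.6%. The background was 12.3% of all genes in granule, 14.2% in CA1, 16.2% in CA3, 12% in retrohippocampal and 13.9% in inhibitory neurons. None of the 9 values that were past 1.5-fold with an interval excluding 0 was higher with exercise. Neither the share of all genes that met both conditions nor their direction was counted. Of these 9, 7 fell under 1.5-fold or had an interval holding 0 in at least 1 alternative setting. The members' medians were -0.07, -0.41, -0.46, -0.23 and -0.43, against -0.12, -0.17, -0.17, -0.11 and -0.11 for all genes, which were themselves below 0.

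Exercise in APPNL-G-F mice gave the most values past the threshold and 2 opposite directions. Junb was lower with exercise in all 5 classes, at -1.38 (-1.70 to -1.06) in granule, -2.07 (-2.38 to -1.77) in CA1, -1.49 (-1.90 to -1.09) in CA3, -2.64 (-3.19 to -2.13) in retrohippocampal and -2.45 (-3.30 to -1.69) in inhibitory neurons. In inhibitory neurons its level was 16.3 CPM (13 to 20.2) without and 2.98 (1.73 to 4.76) with exercise, beside 7.52 and 5.58 in WT mice. Egr4 was lower in the 4 excitatory classes, by -1.17 to -2.63. In CA1 neurons it was at 7.0 CPM (5.55 to 8.71) without and 1.39 (0.823 to 2.20) with exercise. Fos could be measured in CA1 only, where it was at 1.92 CPM (1.21 to 2.91) and 0.463 (0.17 to 1.01), a ratio of -2.06 (-3.65 to -0.71) from 22 and 6 UMIs. Junb and Egr4 were lower in oligodendrocytes too, at -1.36 (-2.13 to -0.60) and, from fewer than 50 UMIs, -3.16 (-5.60 to -1.32). The oligodendrocytes of these 2 libraries lie in different clusters: 92.4% of those without exercise in cluster 24 and 97.5% of those with exercise in cluster 13. By UMIs per nucleus the granule Egr4 ratio was -0.59 (-1.52 to 0.31), and granule Egr4 was above oligodendrocytes in 0 of 4 libraries. Prdx2 was lower by -0.40 to -1.0 over the neuron classes.

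Nr4a1 was higher with exercise in APPNL-G-F mice in all 5 classes. In retrohippocampal neurons it was at 38.2 CPM (33.9 to 42.8) without and 73.8 (67.0 to 81.2) with exercise, beside 54.9 and 53.6 in WT mice. The WT libraries were alike and lay between the 2 APPNL-G-F libraries. The ratio was 1.36 (0.89 to 1.86) in granule, 1.17 (0.95 to 1.40) in CA1, 0.92 (0.64 to 1.21) in CA3, 0.95 (0.73 to 1.17) in retrohippocampal and 0.81 (0.42 to 1.20) in inhibitory neurons. Nr4a3 was higher in granule at 0.67 (0.30 to 1.06), in CA1 at 0.56 (0.35 to 0.77), in CA3 at 0.57 (0.40 to 0.74) and in inhibitory neurons at 0.83 (0.02 to 1.69), but not in retrohippocampal neurons, at 0.05 (-0.28 to 0.38). Arc was lower in CA1, at -0.53 (-0.90 to -0.16), and in retrohippocampal neurons, at -0.88 (-1.48 to -0.30), where Egr1 was lower too, at -0.79 (-1.53 to -0.09). By UMIs per nucleus these 3 values were -0.11, -0.47 and -0.39, with intervals that held 0. With TMM scaling the inhibitory Nr4a3 ratio was 0.70 (-0.11 to 1.55), and after thinning the granule one was 0.44 (-0.34 to 1.23). The granule neurons of these libraries lie in different clusters, 91.1% in cluster 7 without and 96.4% in cluster 10 with exercise. Within cluster 2 Nr4a3 was at 23.5 CPM without and 14.8 with exercise, from 28 and 6 UMIs. There Nr4a1 was at 10.1 and 7.42 CPM, from 12 and 3 UMIs. The part of cluster make-up in the granule ratios was not tested. Egr3 and Npas4 had no value past 1.5-fold with an interval that excluded 0.

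Over the 38 values 21 were past 1.5-fold, or 55.3%, beside a background of 43.8% of all genes in granule, 44.9% in CA1, 44.1% in CA3, 43.3% in retrohippocampal and 42.1% in inhibitory neurons. A difference of this size was thus common in this pair of libraries. The members' medians were 0.05, -0.25, 0.03, -0.37 and 0.62, against 0.07, 0.14, 0.16, 0.14 and 0.12 for all genes. The inhibitory median rests on 5 members, and with the members under 50 UMIs added it was -0.77. With only the members above oligodendrocytes the CA1 median was 0.15, so no direction can be read from it. The comparison shares the APPNL-G-F library without exercise with the first comparison, in which Junb was high and Nr4a1 low, so the 2 do not count as separate evidence. The comparison of genotypes with exercise and that of exercise in WT mice likewise share a library.

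**Figure D4:**
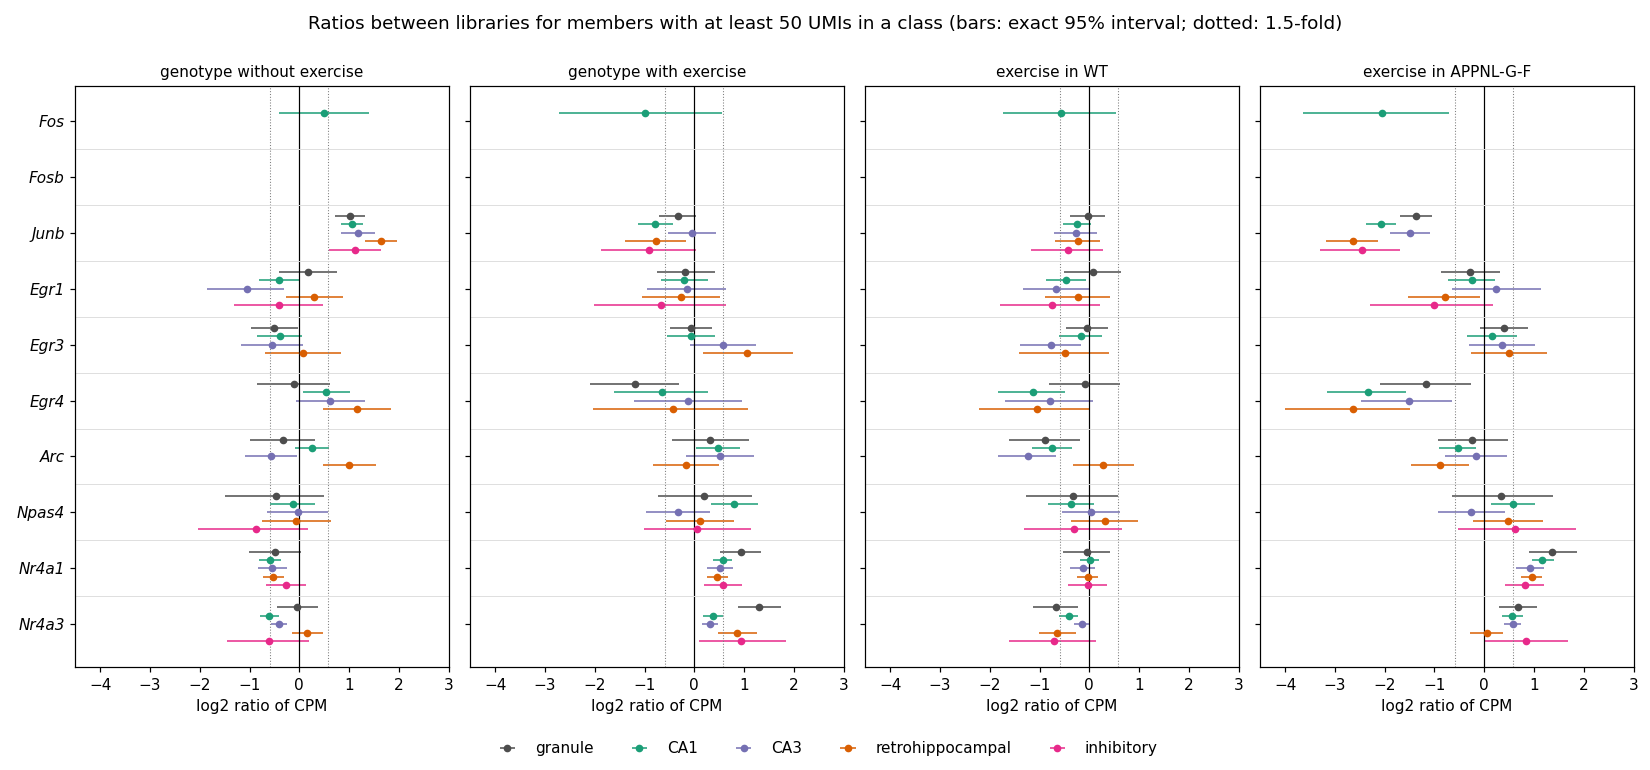
Log2 ratios of CPM (x axis) of each member in 5 neuron classes for the 4 comparisons, with exact 95% intervals as bars and 1.5-fold as dotted lines. In APPNL-G-F mice Junb and Egr4 lie left of 0 and Nr4a1 lies right of 0 in each class measured.

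Lists of related genes were counted in the same way. Other immediate early genes, 38 in the files, were lower with exercise in WT mice in 23 of 25 measured in CA1 neurons, with a median of -0.37 beside -0.17 for all genes. In the other classes 18 of 26 (granule), 19 of 24 (CA3), 19 of 24 (retrohippocampal) and 13 of 18 (inhibitory) were lower, with medians of -0.17, -0.20, -0.22 and -0.35. The medians of all genes were -0.12, -0.17, -0.11 and -0.11, and the share of all genes that were lower was not counted. In APPNL-G-F mice with exercise the other immediate early genes went both ways: in CA1 neurons 5 were past 1.5-fold higher and 6 past 1.5-fold lower of 25. This is 44.0% of the list, near the 44.9% of all genes. Per1, a clock gene also induced by CREB, was higher in granule neurons at 1.57 (1.24 to 1.91), and Klf10, a zinc finger factor, was lower at -1.64 (-1.91 to -1.38). Ier5 was lower in CA1 neurons, at -2.23 (-3.15 to -1.40).

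Delayed activity genes, which are switched on after the immediate early factors, had a median of 0.61 in granule neurons for exercise in APPNL-G-F mice, with 14 of 26 past 1.5-fold higher and 4 lower, or 69.2% past it beside 43.8% of all genes. In CA1, CA3, retrohippocampal and inhibitory neurons the median was 0.26, 0.37, 0.08 and 0.37, and 41.7%, 41.7%, 39.1% and 39.1% of the list were past 1.5-fold, near the background. Sorcs3, a sorting receptor, was higher at 1.39 (1.29 to 1.48), and the secretory granule gene Scg2 was lower at -1.38 (-1.55 to -1.21). Of 35 upstream regulators, the kinases and factors that switch on the immediate early genes, 10 were past 1.5-fold higher and 0 lower in granule neurons. In CA1 neurons 16 were higher and 0 lower. These are 28.6% and 45.7% of the list, below and near the 43.8% and 44.9% of all genes past 1.5-fold in either direction. Crtc2, a CREB coactivator, was at 1.43 (1.12 to 1.75) in granule and 1.46 (1.11 to 1.83) in CA1 neurons, while Atf2 was at -0.51 in both. Among partners and corepressors Jund was lower, at -1.55 (-1.83 to -1.26) in granule and -1.40 (-1.77 to -1.05) in CA1 neurons. Nab2, a corepressor of Egr proteins, was higher in CA1 neurons at 1.49 (1.14 to 1.85).

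The median of a list of 17 stress and dissociation genes had the direction of Junb in 3 of the 4 comparisons. Its median was 0.21 to 0.46 over the 5 classes for genotype without exercise and -0.75 to -0.30 for exercise in APPNL-G-F mice, with 10 genes measured. For exercise in WT mice it was -0.68 to -0.36. For genotype with exercise it was -0.01 to 0.49, while Junb was lower in all 5 classes (-0.91 to -0.04). Hspa8, a heat shock chaperone, was at 28.2 CPM with and 73.0 CPM without exercise in granule neurons of APPNL-G-F mice, while Hsph1 went the other way, at 42.9 CPM with and 23.3 CPM without. Only the 10 members were taken out of the related lists, so these lists can share genes. In granule neurons for genotype with exercise, the stress, partner and other immediate early lists had the same lowest ratio, -0.83. The stress list may thus hold other immediate early genes. The part of tissue handling in the levels of the members was not tested.

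**Figure D5:**
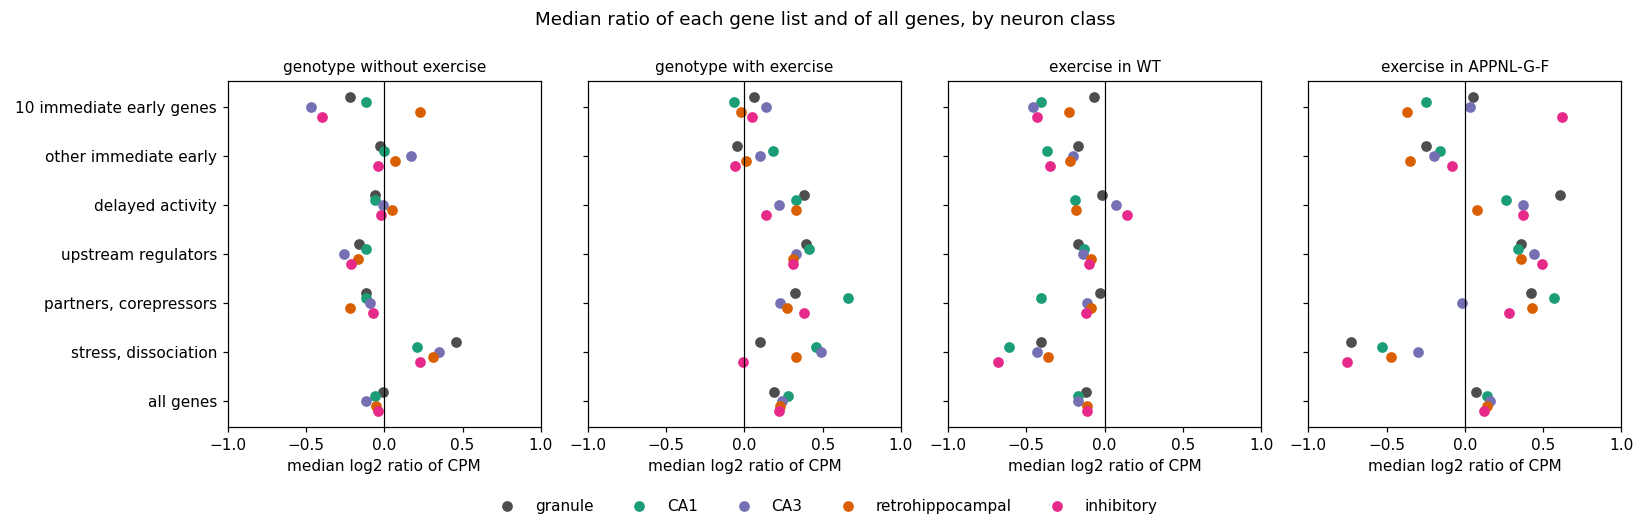
Median log2 ratio (x axis) of the 10 members, of 5 related lists and of all genes in each of 5 neuron classes (colours) for the 4 comparisons. The stress and dissociation list lies right of 0 for genotype without exercise and left of 0 for both comparisons of exercise, while the members' medians lie between -0.47 and 0.62.

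Likeness of profiles was read over 20 points, the 5 neuron classes in 4 libraries, as Pearson's r of log2(CPM + 1) among 14672 genes. The points share library and class, and the values describe these libraries. The genes most like the mean of the members were Dusp6, a phosphatase of ERK that is itself induced early (r = 0.92), Esm1 (0.92), Ralyl (0.92), Zbbx (0.91), Gm44643 (0.91) and Slc16a1 (0.91), followed by Abracl, Gm44644, Hnrnpll and Usp46 (0.89 each). For single members the 2 highest were Rnf13 (0.91) and Itgb1 (0.89) for Fos, Esm1 (0.81) and Gm36431 (0.79) for Fosb, and Tmem158 (0.94) and Arl4a (0.92) for Junb. For the Egr genes they were Slc16a1 (0.87) and Pou3f1 (0.85) for Egr1, Kl (0.93) and Icam5 (0.92) for Egr3, and Esm1 (0.88) and Basp1 (0.86) for Egr4. They were Hnrnpll (0.91) and Gzmk (0.90) for Arc, Rxrg (0.96) and Sh3rf1 (0.95) for Npas4, Sel1l3 (0.98) and Ptprn2 (0.97) for Nr4a1, and Gm31698 and Tbata (0.97 each) for Nr4a3. Among the members themselves Junb and Egr4 were most alike (0.89), followed by Npas4 and Nr4a1 (0.87). Junb and Nr4a1 were at -0.05, and Fos and Egr3 at -0.41.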

How the data were processed

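Nuclei of frozen hippocampus were sequenced with the 10x 3′ v3.1 chemistry, per the labels' protocols, and the authors deposited UMI counts per gene and nucleus. Per the submitters' processing notes the build was mm10 and the tool Cell Ranger 3.1.0, while the file headers name Cell Ranger 5.0.1. The sources used here do not say whether introns were counted. Barcodes with at least 500 genes and 1000 UMIs and at most 5% mitochondrial counts were kept, and those with the highest scores against simulated pairs (5.5% to 8.98% of nuclei, the expected rate) were left out as doublets. Clusters (scanpy 1.11.5, 2000 variable genes, 30 components, Leiden resolution 1.0) were named by marker genes and are rebuilt, not the authors'; 6.98% to 10.7% of nuclei stayed unnamed. UMIs were summed per class and library. CPM have exact Poisson intervals, ratios exact conditional binomial intervals and shares Clopper-Pearson intervals (95%). The ratio was tested on simulated data. The 10 members are all named; up to 2 genes per direction of each related list, and the genes most alike, were named by size. The members and lists were chosen with earlier results of these data known. Alternatives were other scalings, filters, clusterings and thinning to 1500 UMIs (edgeR 4.0.16 TMM factors among them).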

Additional observations from a re-analysis of the deposited data

Results flagged for a closer look

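Nr4a3 went in opposite directions with exercise in the 2 genotypes, with both intervals excluding 0, in 3 neuron classes. In granule neurons the log2 ratio was -0.67 in WT and 0.67 in APPNL-G-F mice, a difference of 1.34. In CA1 neurons it was -0.41 and 0.56, a difference of 0.97, and in CA3 neurons -0.15 and 0.57, a difference of 0.72. The WT value in CA3 neurons did not keep its direction (0.01 with TMM scaling and 0.22 by UMIs per nucleus), so the opposite directions there depend on the scaling. By UMIs per nucleus the WT value in CA1 neurons was -0.13, with an interval that held 0. The APPNL-G-F granule neurons lie mostly in different clusters (7 without and 10 with exercise). In cluster 2 they had 23.5 CPM of Nr4a3 without and 14.8 with exercise, from 28 and 6 UMIs. In WT mice the values without and with exercise were 19.1 and 6.79 in cluster 2 and 3.27 and 2.37 in cluster 7. In cluster 10 they were 11.1 and 17.4, beside 10.7 in APPNL-G-F mice with exercise. The part of cluster make-up in the granule ratios was not tested. Each genotype has 1 library with and 1 without exercise, so the difference between genotypes was not tested.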

How the results depend on the processing

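The 47 member ratios past 1.5-fold with an interval excluding 0 kept their direction under all 11 settings in which they could be computed; 470 of 495 values stayed within the reported interval. Of the 25 that left it, 14 came from scaling by nuclei in place of UMIs, 8 from thinning and 3 from resolution 2.0. Of the 47, 23 stayed past 1.5-fold with an interval excluding 0 in every setting that gave them a value. Thinning gave a value for 25 of the 47, so some of the 23 were not checked by it. In at least 1 setting 20 had an interval holding 0, and 4 more only fell under 1.5-fold. The 47 include granule Egr4 and Arc, which were above oligodendrocytes in 0 of 4 libraries. The share of all genes past 1.5-fold with an interval excluding 0 was not counted. Of 21 smaller ratios whose interval excluded 0, 6 kept that in every setting and 4 changed sign: Nr4a3 in CA3 neurons for exercise in WT mice, and, after thinning alone, Egr3 in granule neurons for genotype without exercise (0.44), and Arc (-0.24) and Nr4a3 (-0.02) in CA1 neurons for genotype with exercise. Of 260 medians of the members, 252 stayed within the interval of their middle member. In CA1 neurons the median for exercise in WT mice was -0.13 by UMIs per nucleus and -0.15 after thinning to 1500 UMIs. Thinning left 7 members in CA1 and 3 in retrohippocampal neurons. It gave CA1 medians of -0.68 for genotype without exercise and 0.39 for exercise in APPNL-G-F mice, and retrohippocampal medians of -0.35 and 0.86. With no minimum of UMIs the CA3 median for genotype without exercise was -0.22, and the inhibitory median for exercise in APPNL-G-F mice was -0.77. Keeping only members above oligodendrocytes, an alternative chosen after seeing the data, left 2 to 7 members a class. The members were never among the variable genes, so allowing them there changed nothing, and 47 of the 495 values could not move. The filter at 1200 UMIs could move values little, since only 0 to 21 nuclei per neuron class and library held fewer than 1500 UMIs. Fos and Fosb are limited by depth, with at most 111 and 44 UMIs in a library. No paired analysis was possible because each group has 1 library.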

Other observations

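Nr4a3 and Arc were unevenly spread over granule neuron clusters, a split noticed after the values were seen. Cluster 2 had 19.1, 6.79 and 23.5 CPM of Nr4a3 in WT without exercise, WT with exercise and APPNL-G-F without exercise, and cluster 7 had 3.27, 2.37 and 4.87. Cluster 10 had 11.1 and 17.4 CPM of Nr4a3 in WT without and with exercise, from 14 and 11 UMIs. In APPNL-G-F with exercise it had 10.7 CPM. Arc was at 9.94, 2.87 and 10.9 CPM in cluster 2 and 1.32, 1.18 and 1.68 in cluster 7. Egr3 differed less, at 7.25, 8.36 and 4.20 CPM in cluster 2 and 5.85, 5.16 and 4.43 in cluster 7. Egr1 showed no such excess, at 3.76, 2.61 and 3.36 CPM in cluster 2 and 3.06, 3.77 and 3.72 in cluster 7. Clusters 2 and 7 had like depth, with medians of 5814 and 5791 UMIs.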
